A study of Mus musculus with 6 samples.

Results

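The 8 genes of the troponin complex (Tnnt1, Tnnt2, Tnnt3, Tnni1, Tnni2, Tnni3, Tnnc1 and Tnnc2) were followed in quadriceps muscle of HSA-LR and wild-type (WT) mice. They were taken by symbol from the GENCODE annotation and found by Ensembl gene identifier in the tables of all 6 libraries, in which 53947 genes are listed. HSA-LR mice are transgenic for a human skeletal actin gene with an expanded CTG repeat (about 220 repeats) and model myotonic dystrophy type 1, in which CUG repeat RNA binds and holds the MBNL splicing factors. Skeletal actin is a gene of muscle fibres, so other cells of the tissue are not meant to make the repeat RNA. WT mice carry no transgene, and neither age nor strain is given for these libraries in the labels. There were 3 HSA-LR and 3 WT libraries of total RNA after removal of ribosomal RNA, with 11468959 to 13220792 counts in HSA-LR and 14048603 to 15023710 counts in WT. Whether each sample is from its own mouse is not stated, and p-values here cover the spread among these samples, which may be technical.

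Troponin is the calcium switch of striated muscle and sits on the thin filament beside tropomyosin. Troponin C binds calcium, troponin I holds back the actin-myosin interaction at rest, and troponin T ties the complex to tropomyosin. Slow fibres use Tnnt1, Tnni1 and Tnnc1, fast fibres use Tnnt3, Tnni2 and Tnnc2, and the heart uses Tnnt2 and Tnni3 together with the Tnnc1 that it shares with slow fibres. Tnnt2 is also made by embryonic skeletal muscle, and transcripts of Tnnt2 and Tnnt3 are spliced in several ways, with exons known to respond to MBNL proteins. The mouse quadriceps is mainly a fast muscle.

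Most of the genes lie in pairs of a troponin I and a troponin T gene (GRCm39). Tnni1 (ENSMUSG00000026418, chr1:135707172-135738727, plus strand) precedes Tnnt2 (ENSMUSG00000026414, chr1:135763738-135780315, plus strand). Tnnt1 (ENSMUSG00000064179, chr7:4507567-4519381, minus strand) and Tnni3 (ENSMUSG00000035458, chr7:4521300-4527228, minus strand) are 1918 bases apart with no annotated gene between them. Tnni2 (ENSMUSG00000031097, chr7:141995545-141998147, plus strand) precedes Tnnt3 (ENSMUSG00000061723, chr7:142048605-142070280, plus strand). The troponin C genes stand alone, with Tnnc1 (ENSMUSG00000091898) at chr14:30930232-30933708 on the plus strand and Tnnc2 (ENSMUSG00000017300) at chr2:164619075-164621887 on the minus strand. A pair thus joins a slow gene with a cardiac gene, or a fast gene with a fast gene.

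The promoters of the 3 slow genes are shown because these genes, on 3 different chromosomes, followed the same order over all 6 libraries as given further on. Sequences are from RefSeq (table build GRCm38.p6, 250 bases before to 50 after a gene's start), were each found once in GRCm39, and are written 5′ to 3′ on the strand of the gene. They lie at chr7:4518925-4519224 (minus strand) for Tnnt1, at chr1:135726909-135727208 (plus strand) for the first of the 2 starts of Tnni1 in that table, and at chr14:30930019-30930318 (plus strand) for Tnnc1. Capitals mark matches, on either strand, to the motifs searched.
Tnnt1: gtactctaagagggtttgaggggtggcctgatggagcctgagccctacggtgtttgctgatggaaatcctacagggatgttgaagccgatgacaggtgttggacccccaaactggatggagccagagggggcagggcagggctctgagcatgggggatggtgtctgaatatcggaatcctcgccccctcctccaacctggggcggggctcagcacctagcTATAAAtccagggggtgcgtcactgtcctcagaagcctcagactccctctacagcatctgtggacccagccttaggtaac
Tnni1: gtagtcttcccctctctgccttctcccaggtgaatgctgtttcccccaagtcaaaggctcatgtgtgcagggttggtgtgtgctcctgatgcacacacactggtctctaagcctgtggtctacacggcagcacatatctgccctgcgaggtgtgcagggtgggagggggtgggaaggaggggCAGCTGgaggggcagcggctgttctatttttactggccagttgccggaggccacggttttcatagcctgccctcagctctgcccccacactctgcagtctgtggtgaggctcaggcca
Tnnc1: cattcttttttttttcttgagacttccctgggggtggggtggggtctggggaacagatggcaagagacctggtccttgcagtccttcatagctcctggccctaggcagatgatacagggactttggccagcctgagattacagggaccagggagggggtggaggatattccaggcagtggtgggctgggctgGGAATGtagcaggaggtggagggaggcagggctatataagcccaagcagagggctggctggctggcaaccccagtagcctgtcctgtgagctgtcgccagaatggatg
The motifs were TATAAA (a form of the TATA box), CATTCC (MCAT, a site known from muscle promoters), CAGCTG (an E-box form bound by myogenic factors), and the MEF2 site and CArG box by their usual consensus. TATA boxes, MCAT sites and E-boxes with other letters were not searched, so a window without a mark can still hold one. TATAAA was found in the Tnnt1 promoter, CAGCTG in that of Tnni1 and CATTCC, on the opposite strand, in that of Tnnc1. Of 32851 promoters in the table, 13.6% held TATAAA, 16.3% held CAGCTG and 14.7% held CATTCC. No motif searched was shared by these windows, and none held a MEF2 site (3.19% of all promoters) or a CArG box (1.63%). The marked matches do not overlap one another. Promoters of 6 of the 8 genes were in the table.

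Several properties of the libraries bear on what follows. 7SL and 7SK RNA, abundant non-coding RNAs, took 43.95%, 18.85% and 23.98% of the counts in HSA-LR replicates 1, 2 and 3, against 14.19%, 14.15% and 15.53% in WT replicates 1, 2 and 3. HSA-LR replicate 1 stood apart on this measure, and WT replicate 2 stood apart from the other WT libraries in slow fibre genes. The summed CPM of 9 skeletal muscle markers was 59520 to 135500 in HSA-LR and 178200 to 204600 in WT, and most of this gap was Ttn (titin). Without Ttn the sums were 29865, 55788 and 47964 in HSA-LR replicates 1, 2 and 3, against 57432, 52650 and 54316 in WT replicates 1, 2 and 3. HSA-LR replicate 2 then lay within the WT range, and HSA-LR replicates 1 and 3 lay below it. Of the 9 muscle markers 1 (Ryr1) was called, lower in HSA-LR. In 5 of the 9, Ttn and Ryr1 among them, the groups did not overlap, each time lower in HSA-LR. Of all genes, 37.8% did not overlap, in either direction. The summed CPM of 8 macrophage markers was 210.4 to 621.1 in HSA-LR and 140.9 to 158.2 in WT, with 5 called higher, and that of 7 fibroblast and fibroadipogenic progenitor markers 1621 to 4995 in HSA-LR and 1277 to 1405 in WT, with 1 called higher. CPM, used for comparisons between libraries, is the count over the library size, with sizes scaled by TMM. TPM, corrected for transcript length, is used between genes of the same library. Among 13576 genes tested with edgeR, 1597 (11.8%) were called (adjusted p under 0.05, Benjamini-Hochberg), of which 1016 (7.48%) were lower and 581 (4.28%) higher in HSA-LR.

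The troponin genes ranged from 0 to 13883 CPM, with the fast genes at 3577 CPM or more, the slow genes between 2.23 and 104.2 CPM and the cardiac genes at or below 1.28 CPM. Of the 8 genes, 6 had enough counts to be tested, and none of these 6 was called in either direction, beside 11.8% of all genes. Their log2 fold changes (HSA-LR over WT) were all negative, with a median of -0.29, beside 0.04 for all genes tested. For the slow genes this sign was not stable, as described below. At an unadjusted p below 0.05 the 6 genes likewise gave 0 calls, while 4326 of the 13576 genes tested did. DESeq2 and limma-voom called 0 of the 6 at an adjusted p below 0.05, beside 2428 and 1430 of the 13576 genes. Together the 8 genes took 1.518%, 2.604% and 2.33% of all counts in HSA-LR replicates 1, 2 and 3, against 2.651%, 2.594% and 2.637% in WT replicates 1, 2 and 3. Only HSA-LR replicates 1 and 3 lay below the WT range.

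**Figure D1:**
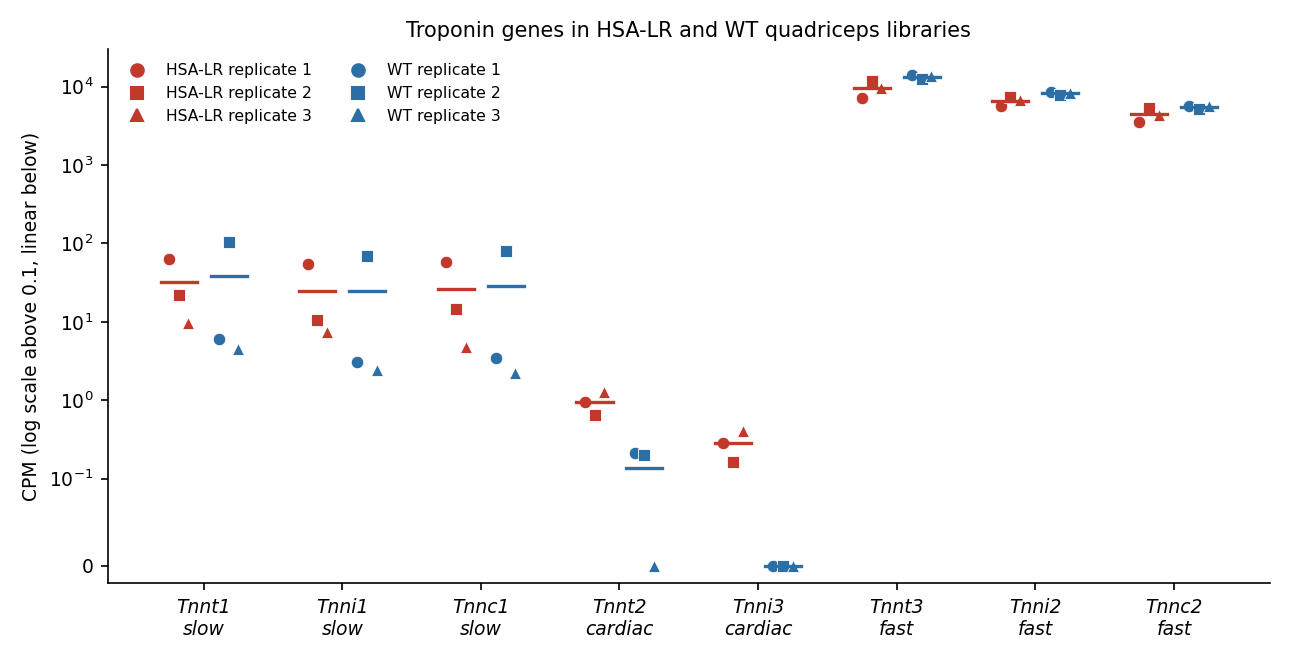
CPM of each troponin gene (symbol, with isoform class) in the 3 HSA-LR libraries (red, left) and the 3 WT libraries (blue, right), on an axis that is logarithmic above 0.1 and linear below. Points are libraries, with the replicate given by their shape, and lines are group means. The fast genes sit at 3577 to 13883 CPM, and in the slow genes WT replicate 2 lies above all other libraries.

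The fast genes carried nearly all troponin RNA, at least 98.4% of the TPM of each subunit in every library. Tnnt3, the fast troponin T, had 7080, 11829 and 9600 CPM in HSA-LR replicates 1, 2 and 3, against 13883, 12588 and 13483 CPM in WT replicates 1, 2 and 3. All HSA-LR libraries lay below all WT libraries, and HSA-LR replicate 1 was the lowest. The groups averaged 9503 ± 2376 CPM in HSA-LR and 13318 ± 663 CPM in WT (SD, n = 3 each), and the log2 fold change of -0.49 ± 0.24 (SE) was not called (edgeR quasi-likelihood test, adjusted p = 0.199). Of all genes tested, 37.8% had groups that did not overlap (on CPM), and Tnnt3 and Tnni2 were the 2 of 6 tested troponin genes that did so, a share near that background.

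Tnni2, the fast troponin I, had 5722, 7430 and 6714 CPM in HSA-LR replicates 1, 2 and 3, against 8489, 7765 and 8308 CPM in WT replicates 1, 2 and 3. Again every HSA-LR library was below every WT library, by 335.3 CPM at the nearest. The log2 fold change was -0.31 ± 0.20 (SE), with an adjusted p of 0.321 in edgeR's test. Tnnc2, the fast troponin C, had 3577, 5405 and 4348 CPM in HSA-LR replicates 1, 2 and 3, against 5623, 5208 and 5741 CPM in WT replicates 1, 2 and 3. Here the groups overlapped, since HSA-LR replicate 2 lay above WT replicate 2. Its log2 fold change was -0.31 ± 0.21 (SE, adjusted p = 0.334 in edgeR's test).

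These differences were sensitive to single libraries. Without HSA-LR replicate 1, in which 7SL and 7SK were highest and muscle markers lowest, the log2 fold changes were -0.31 for Tnnt3, -0.20 for Tnni2 and -0.17 for Tnnc2. Without HSA-LR replicate 2, Tnnt3 was called lower (log2 fold change -0.68 ± 0.20, edgeR adjusted p = 0.0429), in a fit that called 23.6% of all genes, and Tnni2 (adjusted p = 0.116) and Tnnc2 (adjusted p = 0.0678) were not. With the share of 7SL and 7SK as a covariate the values were -0.13, -0.12 and -0.03 for Tnnt3, Tnni2 and Tnnc2. This share was at least 18.85% in HSA-LR and at most 15.53% in WT. The covariate can therefore take up part of a group difference, and that fit cannot tell them apart. In bulk RNA, fewer fibres of a type and less RNA per fibre cannot be told apart.

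Ratios within a library do not depend on its total or on the scaling between libraries, and 3 of them were computed among the fast genes after their values had been seen. They can still carry effects that act by gene length, and Tnnt3 is longer than Tnni2 and Tnnc2. With a trend by gene length removed from each library, the log2 fold changes were -0.74 for Tnnt3, -0.63 for Tnni2 and -0.65 for Tnnc2. The part of length in the ratios was not tested. In TPM, Tnnt3 over Tnnc2 was 1.29, 1.42 and 1.43 in HSA-LR replicates 1, 2 and 3, against 1.62, 1.57 and 1.54 in WT replicates 1, 2 and 3. There was thus less fast troponin T RNA per fast troponin C RNA in every HSA-LR library than in any WT library, with means of 1.38 ± 0.0747 in HSA-LR and 1.57 ± 0.0404 in WT (SD, n = 3 each; two-sided exact permutation p = 0.1, the smallest that 3 against 3 allow). Tnnt3 over Tnni2 was 0.854, 1.09 and 0.976 in HSA-LR replicates 1, 2 and 3, against 1.13, 1.11 and 1.12 in WT replicates 1, 2 and 3. The groups did not overlap here either (two-sided exact permutation p = 0.1, n = 3 each), though HSA-LR replicate 2 lay only just below the WT libraries. Tnni2 over Tnnc2 was 1.51, 1.30 and 1.46 in HSA-LR replicates 1, 2 and 3, against 1.43, 1.41 and 1.37 in WT replicates 1, 2 and 3, with groups that overlapped (two-sided exact permutation p = 0.8, n = 3 each). On expected counts instead of TPM the same pairs of genes did and did not overlap. Adjusted over the 3 ratios (Benjamini-Hochberg, exact permutation tests), p was 0.15 for both ratios of Tnnt3 and 0.8 for Tnni2 over Tnnc2.

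**Figure D2:**
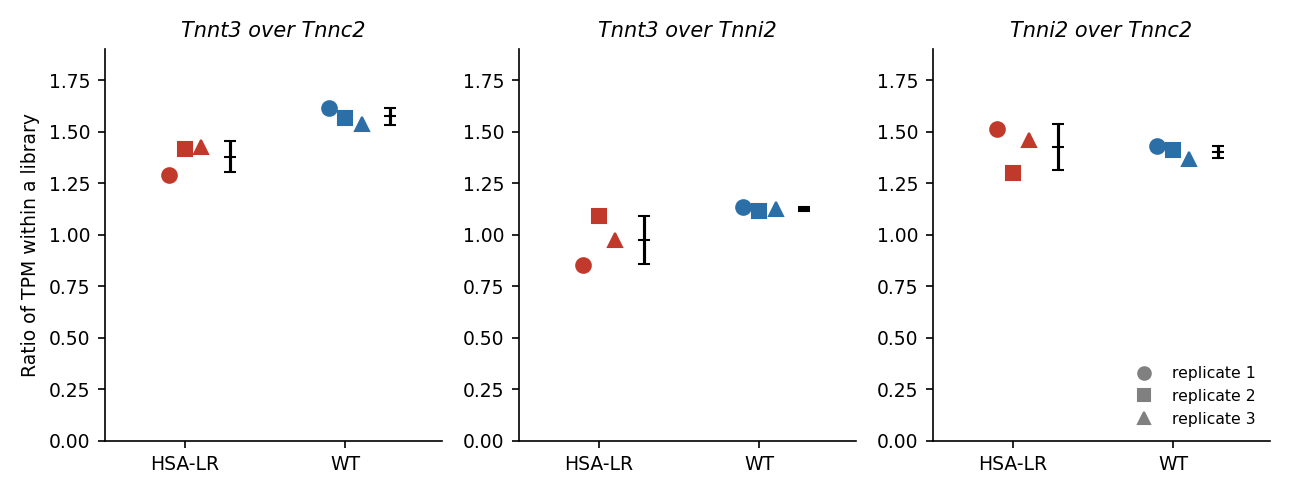
Ratios of TPM between the fast troponin genes within each library, with HSA-LR (red) left of WT (blue), replicates shown by shape, and black bars for the mean and SD of 3 libraries. Tnnt3 over Tnnc2 stays at or below 1.43 in HSA-LR and at or above 1.54 in WT, while Tnni2 over Tnnc2 overlaps between the groups.

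The order of levels in TPM also differed between libraries. In all WT libraries Tnnt3 (10157, 9629 and 9403 TPM in replicates 1, 2 and 3) was above Tnni2 (8969, 8655 and 8373 TPM), and the ranges of these neighbours did not overlap. Tnnc2 followed with 6283, 6145 and 6120 TPM. In HSA-LR, Tnnt3 had 2198, 7591 and 5638 TPM in replicates 1, 2 and 3 and Tnni2 2575, 6965 and 5775 TPM, so that Tnni2 was the higher in replicates 1 and 3 and Tnnt3 in replicate 2. Their group means, 5142 ± 2730 and 5105 ± 2271 TPM (SD, n = 3), did not differ beyond their spread. Tnnc2 was the lowest of the fast genes in HSA-LR too, with 1702, 5364 and 3955 TPM. On TPM rescaled over protein coding genes alone, Tnnt3 averaged 25223 ± 4815 in HSA-LR and 34155 ± 1167 in WT (SD, n = 3 each), and Tnni2 averaged 25766 ± 1896 in HSA-LR and 30418 ± 774 in WT.

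The slow genes were ordered by library rather than by group. Tnnt1, the slow troponin T, had 63.9, 22.0 and 9.74 CPM in HSA-LR replicates 1, 2 and 3, against 6.01, 104.2 and 4.54 CPM in WT replicates 1, 2 and 3. WT replicate 2 was 19.8 times the mean of the other WT libraries, and every HSA-LR library lay between it and them. The log2 fold change, -0.27 ± 1.53 (SE), therefore had an error larger than itself (edgeR adjusted p = 0.92). Tnni1, the slow troponin I, had 55.4, 10.5 and 7.52 CPM in HSA-LR replicates 1, 2 and 3, against 3.11, 68.6 and 2.45 CPM in WT replicates 1, 2 and 3. Its WT replicate 2 was 24.7 times the mean of the other WT libraries, and the log2 fold change was -0.03 ± 1.65 (SE, edgeR adjusted p = 0.991). Tnnc1, which serves slow fibres and heart, had 58.5, 14.5 and 4.83 CPM in HSA-LR replicates 1, 2 and 3, against 3.47, 80.5 and 2.23 CPM in WT replicates 1, 2 and 3. The difference between WT libraries was 28.3-fold by the same measure, and the log2 fold change was -0.16 ± 1.73 (SE, edgeR adjusted p = 0.957).

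In all 3 slow genes the libraries fell in the same order, from high to low WT 2, HSA-LR 1, HSA-LR 2, HSA-LR 3, WT 1 and WT 3. Without WT replicate 2 the direction turned: all HSA-LR libraries were then above both WT libraries, and the mean CPM in HSA-LR was 6.05 times that in WT for Tnnt1, 8.79 times for Tnni1 and 9.11 times for Tnnc1. These means rest largely on HSA-LR replicate 1, which was kept. The lowest HSA-LR values were 9.74, 7.52 and 4.83 CPM, against at most 6.01, 3.11 and 3.47 CPM in WT replicates 1 and 3. The log2 fold changes of the fit without WT replicate 2 were 2.58 ± 0.94 for Tnnt1, 3.11 ± 1.19 for Tnni1 and 3.16 ± 1.34 for Tnnc1 (SE). None was called (edgeR adjusted p = 0.207, 0.225 and 0.26), in a fit that called 1.55% of all genes.

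Expressed as a share of the TPM of its subunit, which does not depend on library size, slow RNA was at most 1.57% in any library. Tnnt1 made up 0.893%, 0.203% and 0.11% of troponin T in HSA-LR replicates 1, 2 and 3, against 0.0467%, 0.818% and 0.0358% in WT replicates 1, 2 and 3. Tnni1 made up 0.618%, 0.0885% and 0.0811% of troponin I in HSA-LR replicates 1, 2 and 3, against 0.0221%, 0.564% and 0.0207% in WT replicates 1, 2 and 3. Tnnc1 made up 1.57%, 0.258% and 0.107% of troponin C in HSA-LR replicates 1, 2 and 3, against 0.0593%, 1.47% and 0.0374% in WT replicates 1, 2 and 3. By this measure HSA-LR replicate 1 and WT replicate 2 stood side by side, with HSA-LR replicate 1 slightly the higher for every subunit, although WT replicate 2 was the higher in CPM. The remaining HSA-LR libraries were above the remaining WT libraries for every subunit. On counts, the Tnnc1 share was 0.111% in HSA-LR replicate 3 (72 of 64828 counts, exact Clopper-Pearson 95% interval 0.0869 to 0.14) and 0.0616% in WT replicate 1 (49 of 79556 counts, 0.0456 to 0.0814), intervals that nearly touch. For HSA-LR replicate 1 (1.61%, 1.49 to 1.74) and WT replicate 2 (1.52%, 1.44 to 1.61) they overlapped. These intervals cover counting error only, not the spread between samples. The group means differed by 0.10 percentage points for troponin T, 0.06 for troponin I and 0.12 for troponin C (HSA-LR minus WT), less than the spread within either group, and no test was made of these shares.

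**Figure D3:**
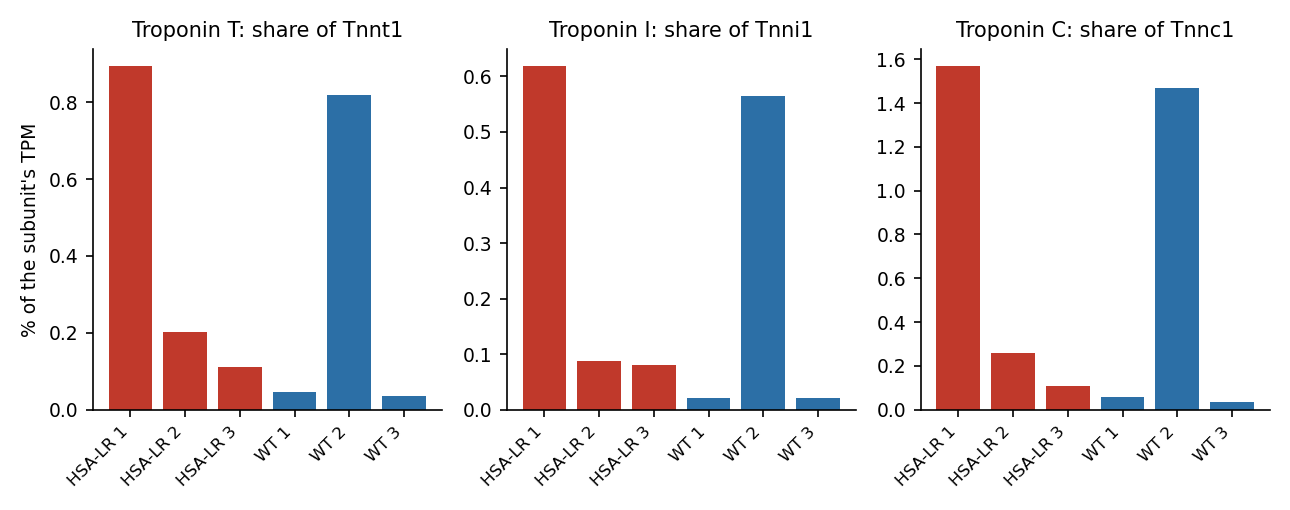
Share of the slow gene in the summed TPM of each subunit (percent), in HSA-LR replicates 1 to 3 (red) and WT replicates 1 to 3 (blue). In each panel the bars of HSA-LR replicate 1 and WT replicate 2 are the tallest (0.893% and 0.818% for Tnnt1), and the other WT bars are the shortest.

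The proportions among the slow genes were steadier than their levels. Of the summed TPM of Tnnt1, Tnni1 and Tnnc1, the share of Tnnt1 was 31.5%, 43.5% and 41.1% in HSA-LR replicates 1, 2 and 3, against 45.4%, 36.1% and 45.6% in WT replicates 1, 2 and 3. The share was lowest in HSA-LR replicate 1 and WT replicate 2, the libraries with most slow RNA. Tnnc1 took 43.1%, 39.1% and 27.9% in HSA-LR replicates 1, 2 and 3, against 35.7%, 41.6% and 31.0% in WT replicates 1, 2 and 3, and the groups overlapped. Tnni1 ranged from 17.4% to 31.0% in HSA-LR and from 18.9% to 23.4% in WT. Per library the summed fast TPM was 103, 561 and 1014 times the summed slow TPM in HSA-LR replicates 1, 2 and 3, against 2431, 111 and 3234 times in WT replicates 1, 2 and 3.

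Other slow fibre genes were read beside these. Of 16 listed slow fibre genes, all tested, 9 were highest in WT replicate 2 and HSA-LR replicate 1 (Myh7, Myh7b, Myl2, Myl3, Tpm3, Atp2a2, Casq2, Myoz2 and Pln). Among them Myh7b varied little, from 0.967 to 1.43 CPM. The same libraries were highest for 3 of 6 endothelial markers and 1 of 16 fast fibre genes, and the share over all genes was not counted. Myh7, the slow myosin heavy chain, had 302, 65.2 and 24.5 CPM in HSA-LR replicates 1, 2 and 3, against 15.0, 520 and 5.20 CPM in WT replicates 1, 2 and 3. This is the order of the slow troponin genes, and Tpm3, the slow tropomyosin, had it as well. Atp2a2, the slow calcium pump, had 190, 75.3 and 69.8 CPM in HSA-LR replicates 1, 2 and 3, against 56.1, 397 and 61.4 CPM in WT replicates 1, 2 and 3, so that only WT replicates 1 and 3 changed places. These genes were chosen for naming after their values were seen. In the list as a whole 1 gene was called higher and 0 lower (beside 4.28% and 7.48% of all genes), and the list's median was 0.15 on the log2 scale. The called gene was Sln, sarcolipin, an inhibitor of the calcium pump, with 81.0, 50.5 and 66.1 CPM in HSA-LR replicates 1, 2 and 3, against 0.495, 1.85 and 0.0744 CPM in WT replicates 1, 2 and 3 (log2 fold change 6.29 ± 0.67, edgeR adjusted p = 0.00662). Its groups were far apart, and WT replicate 2 was not high for it beside any HSA-LR library. Its call was kept with each library left out in turn.

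**Figure D4:**
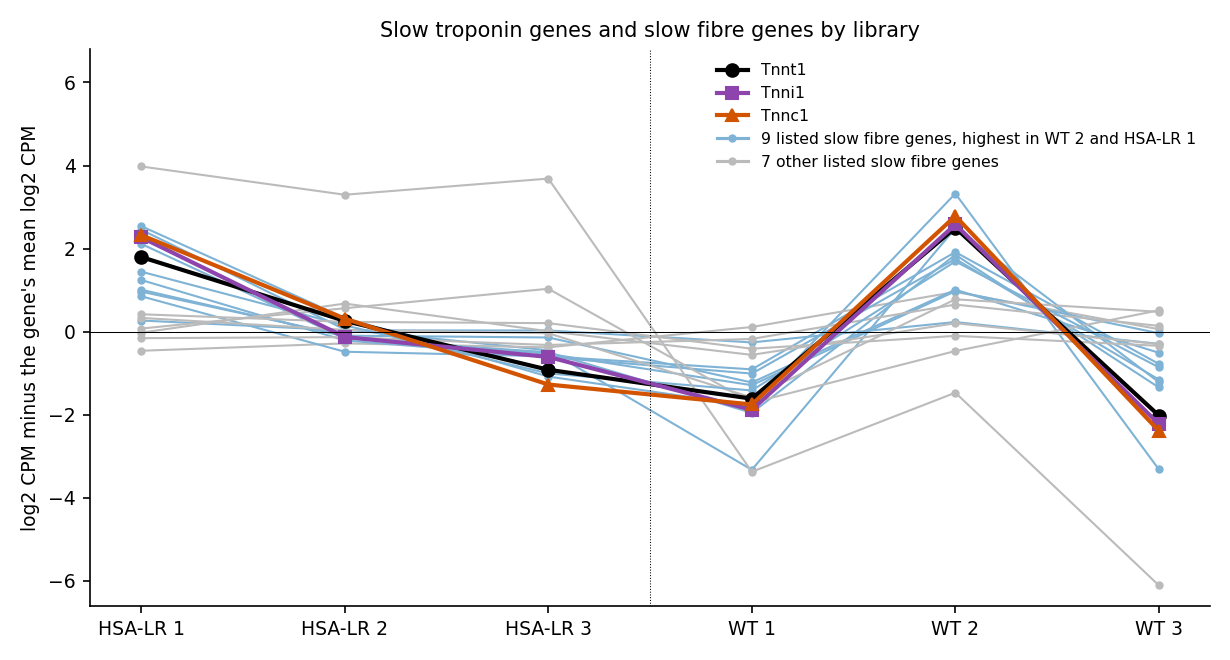
log2 CPM of the slow troponin genes (thick lines) and of 16 listed slow fibre genes (thin lines), each minus the gene's own mean over the 6 libraries, by library with HSA-LR left of WT. The troponin lines and 9 of the listed genes (light blue) peak in HSA-LR replicate 1 and WT replicate 2, while 7 listed genes (grey) do not, among them Sln, which is high in all HSA-LR libraries.

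The cardiac genes were close to the limit of detection and were not tested with the rest. Tnnt2, the cardiac troponin T, had 10, 8 and 19 counts in HSA-LR replicates 1, 2 and 3 (0.951, 0.645 and 1.28 CPM), against 3, 3 and 0 counts in WT replicates 1, 2 and 3 (0.212, 0.199 and 0 CPM). All HSA-LR libraries lay above all WT libraries, where the total of 6 counts leaves a wide error. Over pooled counts the level was 6.96 times higher in HSA-LR (exact conditional 95% interval 2.91 to 20.2, counting error only). In a fit without a filter on low counts the log2 fold change was 2.70 ± 0.89 (SE, edgeR adjusted p = 0.0503), just short of the threshold, and the exact permutation test on CPM gave p = 0.1 (two-sided, n = 3 each, the smallest possible). Without HSA-LR replicate 2 Tnnt2 passed the filter and was called higher (log2 fold change 2.92 ± 0.86, edgeR adjusted p = 0.0439). That fit called 23.6% of all genes. Tnnt2 passed its filter only through the HSA-LR counts, so this call adds no support for a difference. Without WT replicate 2 Tnnt2 was not called (edgeR adjusted p = 0.145).

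Tnni3, the cardiac troponin I, had 3, 2 and 6 counts in HSA-LR replicates 1, 2 and 3 and 0 counts in every WT library. The limit that 0 counts allow, 3 counts over the WT group, corresponds to 0.0703 CPM, and the pooled HSA-LR level of 0.291 CPM was 4.14 times this limit. This ratio leaves out the counting error of the 11 HSA-LR counts and is not a lower bound. The fit without a filter did not call it (edgeR adjusted p = 0.103). Tnni3 lies in an overlapping locus with Dnaaf3 on the same strand, which itself had at most 3 counts in any library, and reads of the overlap cannot be given to either gene with certainty. Of 11 cardiomyocyte markers, Nppb, Mybpc3, Myl7 and Nkx2-5 were at 0 in all 6 libraries, and the summed CPM of the list was 9.36 to 32.0 in HSA-LR and 6.77 to 44.4 in WT. The highest sum was that of WT replicate 2, in which Tnni3 had 0 counts and Myh6, a close relative of Myh7 with which it can share reads, had 40.3 CPM.

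Genes of the embryonic and regeneration list, in which Tnnt2 would also have a place, were read beside it. Of 15 genes, 11 were tested, and 3 of these were called higher and 0 lower, beside 4.28% and 7.48% of all genes, and the list's median was 1.07 on the log2 scale. They were Myh8, the perinatal myosin heavy chain (log2 fold change 1.30 ± 0.27, edgeR adjusted p = 0.0204), Myl4, an embryonic and atrial myosin light chain (1.27 ± 0.30, adjusted p = 0.0297), and Runx1, a transcription factor that rises in denervated muscle (1.16 ± 0.32, adjusted p = 0.047). Myog, the myogenic regulator of differentiation, was not among them and averaged 8.96 ± 1.42 CPM in HSA-LR and 11.4 ± 2.87 CPM in WT (SD, n = 3 each). The levels of all these genes were low, at most 10.4 CPM for those called. Each of the 3 calls was lost without HSA-LR replicate 3 or without any of the WT libraries (adjusted p up to 0.104 for Myh8, 0.136 for Myl4 and 0.177 for Runx1). Those fits called only 166 to 217 genes in all, against 1597 with all libraries, so most calls were lost in them.

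Among the fast fibre genes 2 of 16 tested were called lower and 0 higher (beside 7.48% and 4.28% of all genes), 15 of 16 log2 fold changes were negative, and their median was -0.46. Mylk2, the skeletal myosin light chain kinase, averaged 303 ± 100 CPM in HSA-LR and 763 ± 60.0 CPM in WT (SD, n = 3 each; log2 fold change -1.33 ± 0.25, edgeR adjusted p = 0.0148). Atp2a1, the fast calcium pump, averaged 6397 ± 2259 CPM in HSA-LR and 13611 ± 1551 CPM in WT (log2 fold change -1.09 ± 0.29, edgeR adjusted p = 0.0446). The fast troponin genes, at -0.49 to -0.31, had smaller values than these and lay near the median of the list. Of the other genes of the thin filament, 17 of 18 were tested, 2 were called lower and 0 higher (beside 7.48% and 4.28% of all genes), and their median on the log2 scale was -0.11. The called genes were Actc1, cardiac alpha-actin, with 14.5, 21.4 and 18.9 CPM in HSA-LR replicates 1, 2 and 3, against 88.3, 76.2 and 79.1 CPM in WT replicates 1, 2 and 3 (log2 fold change -2.15 ± 0.17, edgeR adjusted p = 0.00151), and Xirp2, an actin-binding protein of the Z-disc and intercalated disc (-1.26 ± 0.28, adjusted p = 0.0253). Without HSA-LR replicate 3 or any of the WT libraries the calls of Mylk2, Atp2a1 and Xirp2 were lost (adjusted p up to 0.0809, 0.176 and 0.12). The fits in which they were lost called only 166 to 217 genes in all, against 1597 with all libraries. The call of Actc1 was kept with each library left out in turn. Actc1, a gene of heart and embryonic muscle, was thus lower in every HSA-LR library, whereas Tnnt2 counts were higher. Acta1, a close relative with which Actc1 can share reads, averaged 25419 CPM in HSA-LR and 26727 CPM in WT. The part of shared reads in the Actc1 values was not tested. The macrophage and fibroblast marker sums given above differ between the groups as well, and their part in these values was not tested.

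Of the genes next to the troponin genes that were tested, 11 besides other troponin genes, 1 was called, beside 11.8% of all genes. Phlda3, a p53 target upstream of Tnni1, had 49.4, 77.0 and 96.9 CPM in HSA-LR replicates 1, 2 and 3, against 27.9, 27.9 and 40.2 CPM in WT replicates 1, 2 and 3 (log2 fold change 1.22 ± 0.26, edgeR adjusted p = 0.0252). The call was lost without HSA-LR replicate 3 or any of the WT libraries (adjusted p up to 0.12), in fits that called 166 to 217 genes in all, against 1597. The order of Phlda3 over the libraries was not that of Tnni1, whose highest value was in WT replicate 2. Ppp1r12c, next to Tnnt1, stayed between 13.8 and 19.6 CPM in all libraries while Tnnt1 ranged from 4.54 to 104.2 CPM, and Sema3g, next to Tnnc1, stayed between 4.57 and 6.62 CPM. The genes around the slow troponin genes named here did not show their high values in WT replicate 2.

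The tables also give a length for each gene in each library, the mean length of its transcripts weighted by their estimated abundance, which moves with isoform use. Lengths were compared for the 6 genes with at least 10 counts in every library. Tnnt3 lists 25 transcripts of 340 to 1232 bases, more than any other troponin gene, and 21 of them are protein coding. Of the 9 internal exons that some of these contain and others skip, 8 are shown as examples of how its transcripts differ (the other, of 19 bases, is skipped by 1 transcript). They are given 5′ to 3′ on the plus strand of chromosome 7 in GRCm39.
exon at chr7:142056477-142056494, in 14 of 21 coding transcripts: aacaatacgaagaggaag
exon at chr7:142057785-142057802, in 20: aggaggcccaagaggaag
exon at chr7:142057987-142058001, in 13: aagtccaggaggaag
exon at chr7:142059025-142059036, in 9: cccccgaaccag
exon at chr7:142059253-142059267, in 11: aggaagtccaagaag
exon at chr7:142061487-142061525, in 5: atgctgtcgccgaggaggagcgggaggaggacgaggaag
exon at chr7:142067402-142067442, in 7: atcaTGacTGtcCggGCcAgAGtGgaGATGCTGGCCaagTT
exon at chr7:142068063-142068103, in 12: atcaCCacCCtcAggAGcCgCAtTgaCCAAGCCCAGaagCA
The first 6 are small exons of 12 to 39 bases, all a multiple of 3, near the start of the protein. The last pair have 41 bases each, and capitals mark the positions at which they differ, with 18 of 41 positions alike. No listed coding transcript contained both (7 held the first, 12 the second and 2 neither), so a switch between them leaves the length as it is. Exon inclusion itself was not measured in these gene tables.

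Tnnt3 had a weighted length of 989.60, 992.47 and 997.09 bases in HSA-LR replicates 1, 2 and 3, against 982.75, 990.62 and 983.62 bases in WT replicates 1, 2 and 3. The means, 993.1 ± 3.78 bases in HSA-LR and 985.7 ± 4.32 bases in WT (SD, n = 3 each), differed by 7.39 bases, but the groups overlapped because WT replicate 2 lay above HSA-LR replicate 1 (two-sided exact permutation p = 0.2, where 0.1 is the smallest possible). The difference is smaller than the shortest of the exons above, 12 bases. A weighted mean can also move by part of an exon's length, so this does not tell whether exon inclusion changed. Of 10702 genes with several transcripts and at least 10 counts in every library, 12.8% had lengths that did not overlap between groups, and none of the 6 troponin genes did.

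Tnnt1 had 991.1, 922.9 and 928.6 bases in HSA-LR replicates 1, 2 and 3, against 923.6, 993.3 and 933.5 bases in WT replicates 1, 2 and 3. The libraries with most Tnnt1, HSA-LR replicate 1 and WT replicate 2, thus had the long values and the other 4 lay between 922.9 and 933.5 bases, on 61 to 273 counts each (group difference -2.64 bases, two-sided exact permutation p = 0.7). Tnni1 varied from 948.7 to 1068 bases in HSA-LR and from 972.9 to 1105 bases in WT, with no such grouping. Tnni2 (730.8 to 731.3 bases), Tnnc2 (699.8 to 700.0 bases) and Tnnc1 (714.9 to 721.0 bases) hardly moved, and for none of these genes did the groups separate (two-sided exact permutation p from 0.4 to 0.7, 6 genes compared in all).

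**Figure D5:**
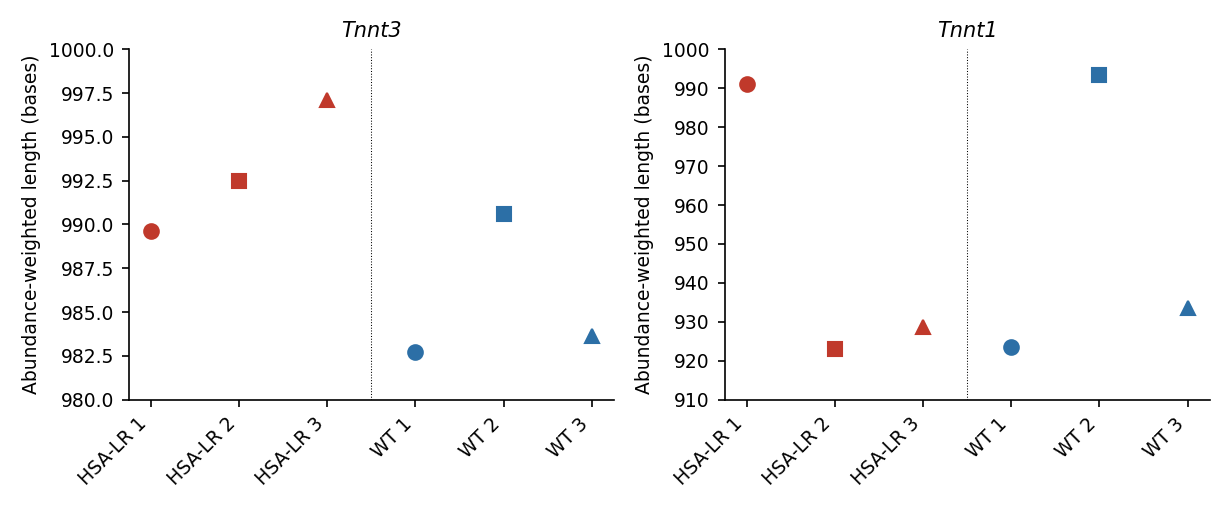
Abundance-weighted transcript length in bases of Tnnt3 (left panel) and Tnnt1 (right panel) in each library, with HSA-LR (red) left of WT (blue). The axes do not start at 0. For Tnnt3 WT replicate 2 (990.62 bases) lies among the HSA-LR libraries, and for Tnnt1 HSA-LR replicate 1 and WT replicate 2 lie near 991 to 993 bases, apart from the other libraries.

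Genes on the opposite strand overlap 3 of the troponin genes in the tables, Prr33 at Tnnt3, Nisch at Tnnc1 and Ube2c at Tnnc2. The libraries were made with a stranded kit, but the sources used here do not say whether counting used the strand. Prr33 had at most 1009 counts in any library beside at least 74426 for Tnnt3, and Ube2c at most 40 beside at least 37602 for Tnnc2. Nisch had up to 905 counts, more than Tnnc1 in all libraries but WT replicate 2, and reads of this overlap cannot be told apart if strand was not used. All counts of the 8 genes were whole to within 0.005 in all 6 libraries.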

How the data were processed

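Total RNA-seq of quadriceps was available for 3 HSA-LR and 3 WT samples, grouped by the genotype and replicate number in their titles. The authors deposited 1 table per sample from RSEM 1.3.1 with Bowtie2 on GRCm39, per the submitters' processing notes. The expected counts deposited by the authors are unscaled read numbers per gene as RSEM estimated them, in which a read matching several genes is divided among these. The TPM deposited by the authors are these counts over effective length, brought to the same sum in each library, and the FPKM deposited by the authors are counts per length and per library size. The other columns, length and effective length, were also deposited by the authors.

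Expected counts were rounded, filtered with filterByExpr (edgeR 4.0.16, R 4.3.3), scaled by TMM and compared between groups by edgeR's quasi-likelihood test, with robust dispersion and group as its term. Calls used an adjusted p under 0.05, over all 13576 genes tested. The annotation was GENCODE M39, in which 53400 of 53947 identifiers were found. The 8 genes and the gene lists were chosen with earlier results of these data known. Named genes were the 8 members, their nearest tested neighbours, and up to 3 called genes of each list with the lowest p, and other genes are named as chosen after their values were seen. The procedure was tested on simulated counts. At these depths 3 counts correspond to 0.199 to 0.285 CPM in a library, and intervals cover counting error only, since reads were not tagged by molecule. The alternatives were other scalings, filters, tools (DESeq2 1.42.0, limma 3.58.1), a covariate, a replicate block and each library left out in turn.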

Additional observations from a re-analysis of the deposited data

How the results depend on the processing

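Over all genes, 1597 were called, against 935 when 7SL and 7SK content was a covariate, 2428 with DESeq2, 740 with an effective length offset, 133 with limma-trend on deposited TPM and 548 on TPM rescaled over protein coding genes. With each library left out in turn the count was 166 to 3294, and 1980 without a filter. Of 1509 calls under upper-quartile scaling 728 were for higher levels, against 581 of 1597. On deposited TPM the median log2 fold change of all genes was -0.46, against 0.04 in edgeR. The number of troponin genes called was 0 under all alternatives except without HSA-LR replicate 2, so 0 to 2 with libraries left out. That fit called 2 (Tnnt3 and Tnnt2), beside 23.6% of all genes. Tnnt3, Tnni2 and Tnnc2 stayed negative under all 20 alternatives each, at -1.10 to -0.13, -0.88 to -0.12 and -0.90 to -0.03.

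The slow genes changed sign with the processing and were not called in any of it. With limma-voom the log2 fold changes of Tnnt1, Tnni1 and Tnnc1 were 0.65, 0.84 and 0.70, with limma-trend on deposited TPM 0.18, 0.46 and 0.32, and on rescaled TPM 0.83, 1.12 and 0.98. Tnni1 was 0.025 with upper-quartile factors and 0.028 with the stricter filter of at least 50 counts in 3 libraries. With a library left out they were -1.27 to 2.58, -1.46 to 3.11 and -1.58 to 3.16, lowest without HSA-LR replicate 1 and highest without WT replicate 2. These tests work on other scales or weights, and the cause was not tested.

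With a replicate block 799 genes and 0 troponin genes were called, and Tnnt1, Tnni1 and Tnnc1 had log2 fold changes of 0.76, 1.04 and 0.83. The deviations of same-numbered libraries from their group means had correlations of 0.000517, -0.0949 and 0.228 for replicates 1, 2 and 3. With so few libraries these values cannot show whether the samples were paired, and the numbers are not stated to pair them.

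The differences in slow share (HSA-LR minus WT) moved by less than 1 SD under all 9 alternatives for each subunit, and with a library left out were -0.14 to 0.36 percentage points for troponin T, -0.12 to 0.24 for troponin I and -0.34 to 0.60 for troponin C, and their sign thus changed with the library left out. The length difference of Tnnt3 stayed positive, at 5.37 to 9.87 bases with a library left out and 11.4 bases on effective length. On effective length those of Tnnt1, Tnnc1 and Tnnc2 turned to 1.33, 2.23 and 3.93 bases. Those of Tnni2 and Tnni1 went from 0.19 and -19.3 to 4.16 and -15.4 bases. Every gene compared thus moved up by nearly the same amount, and a shift shared by all of them does not tell of isoform use. With a library left out, Tnnt1 gave -24.4 to 18.9, Tnni1 -53.8 to 17.6 and Tnnc1 -2.86 to 0.19 bases, at 30 to 85 counts in the lowest libraries.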
